A study of Mus musculus with 6 samples.

Results

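The TNF superfamily of ligands and receptors was described in mouse bone marrow derived macrophages treated with piceatannol. Members were the rows of the deposited count table whose symbol begins with Tnfsf or Tnfrsf followed by a digit, together with Tnf, Lta, Ltb, Ltbr, Fas, Fasl, Cd40, Cd27, Cd70, Eda2r and Ngfr. This gave 43 of 52459 genes: 16 ligands, 26 receptors and Tnfsf13os, an antisense RNA at the Tnfsf13 locus. The piceatannol libraries came from C57BL/6 bone marrow cells cultured with GM-CSF (a growth factor for myeloid cells) and given piceatannol overnight from day 7. The control libraries came from the same strain and culture with GM-CSF and received the vehicle alone. Each group had 3 libraries, and the sources used here give neither the dose nor the vehicle, nor the age of the mice. Whether the 3 libraries stem from different mice or dishes is not stated, so p-values measure the spread between these libraries, which may be technical. Piceatannol is a plant stilbene related to resveratrol and is widely used to inhibit Syk, a tyrosine kinase.

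Ligands of this superfamily are trimeric proteins, mostly anchored in the membrane and in part shed from it, that bind receptors with cysteine-rich extracellular domains. Receptors with an intracellular death domain recruit adaptors that can start cell death, and receptors without one recruit TRAF proteins that lead to NF-kB and MAP kinase signalling. Decoy receptors bind ligand without passing on a full signal. Macrophages are known as a main source of TNF, express both TNF receptors, and exchange many of the other ligands with lymphocytes.

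Depth allowed all but the rarest members to be compared. Library totals were 33276569 to 49283203 counts in the piceatannol group and 43586270 to 58697084 in the control group. Genes with enough counts, 15380 in all, were tested with edgeR (quasi-likelihood), and p-values were adjusted over all of them by the Benjamini-Hochberg method, with a threshold of 0.05. Levels are given as CPM (counts scaled to a common library size), and comparisons of levels between genes use the authors' FPKM, which account for gene length. Of 9 macrophage markers all were detected, with 2 higher and 7 lower in the piceatannol group. Their summed level was 13331 to 14798 CPM with piceatannol against 18788 to 22786 CPM in control. Most of it came from Lyz2, at 10224 CPM on average with piceatannol and 14876 CPM in control. Cd14 rose 3.80-fold and Cd68 2.16-fold, while the largest fall was 10.2-fold, in Fcgr1. Dendritic cell markers (6 lower and 1 higher of 9 tested, 10 listed) summed to 2009 to 2326 CPM with piceatannol and 7092 to 7970 CPM in control. Of these sums H2-Ab1 alone gave 1079 CPM on average with piceatannol and 5619 CPM in control. The largest falls in this list were 45.5-fold in Cd209a (1.24 CPM on average with piceatannol, 56.3 CPM in control) and 16.7-fold in Dpp4 (3.03 CPM with piceatannol, 50.4 CPM in control). Clec9a rose 1.71-fold with overlapping groups, and Ccr7 and Irf4 did not pass the threshold. Fibroblast or stromal markers (6 lower of 8) summed to 526 to 590 CPM with piceatannol and 2277 to 2540 CPM in control, and neutrophil markers (7 lower of 7 tested, 8 listed) to 34.4 to 42.2 CPM with piceatannol and 253 to 591 CPM in control. Endothelial markers (3 higher and 0 lower of 4 tested, 5 listed) summed to 413 to 493 CPM with piceatannol and 115 to 127 CPM in control. Most of that came from Vwf, which rose 4.27-fold, and Kdr rose 3.13-fold. Cdh5 rose at a low level (0.769 CPM on average with piceatannol, 0.423 CPM in control). Pecam1 did not pass the threshold, and Tek had 3 counts in all with piceatannol and 2 in control. Mast cell or basophil markers (1 higher and 3 lower of 4 tested, 6 listed) summed to 67.7 to 85.2 CPM with piceatannol and 22.2 to 27.4 CPM in control, nearly all from Kit, which rose, while Cpa3 fell. In bulk libraries such as these, fewer cells of a type and less RNA per cell cannot be told apart. The part of these shifts in the results that follow was not tested.

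Most members moved with piceatannol, and they moved in both directions. Of the 36 members that passed the filter on low counts, 13 rose and 18 fell, and 5 did not pass the threshold. Across all tested genes 38.8% rose and 38.3% fell, or 77.0% in either direction, so the members' share of 86.1% stands close to a background in which most genes were called. At least a 2-fold change was called for 9 members upward and 9 downward, where the background was 17.5% upward and 16.6% downward. In 12 of the 36 members every piceatannol library lay above every control library (39.9% of all tested genes), and in 19 every one lay below (39.2%), where 79.0% of all tested genes did either. The median log2 fold change of the tested members was -0.44 and that of all tested genes 0.01. The other 7 members, Cd27, Ngfr, Tnfrsf13c, Tnfrsf17, Tnfrsf19, Tnfsf11 and Tnfsf18, had too few counts to be tested.

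**Figure D1:**
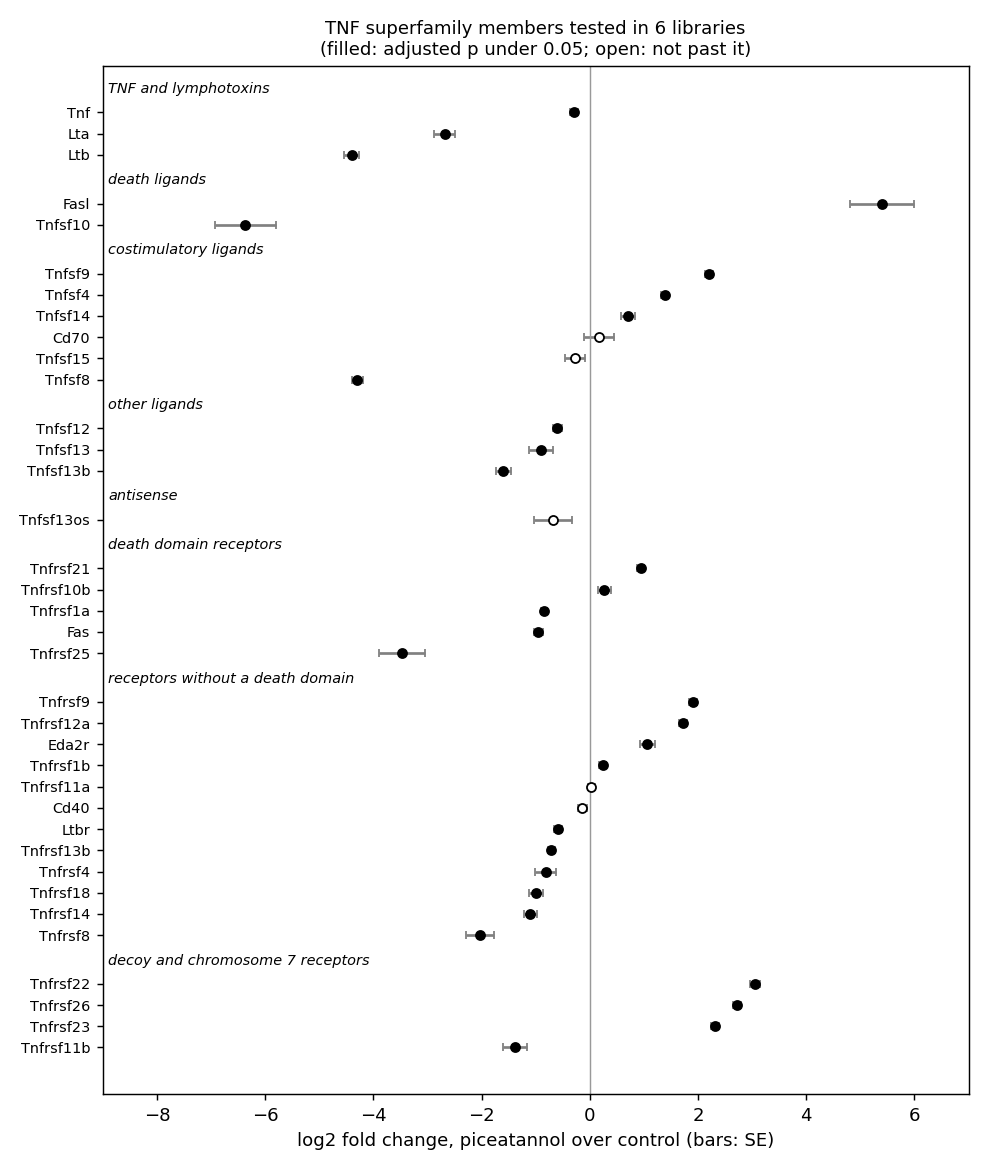
Log2 fold change (x axis) of each of the 36 tested members (y axis), grouped by role, with bars of 1 SE. Filled points passed the threshold. The 3 chromosome 7 receptors Tnfrsf22, Tnfrsf26 and Tnfrsf23 lie between 2.31 and 3.06, and Ltb and Tnfsf8 lie at -4.40 and -4.30.

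Ltb and Lta, the lymphotoxin genes, fell far more than Tnf, although the genes lie side by side. Lymphotoxin beta anchors lymphotoxin alpha in the membrane, and that complex binds the lymphotoxin beta receptor. On GRCm38 (GENCODE M21 annotation) Ltb occupies chromosome 17, 35194439 to 35196320, Tnf 35199381 to 35202007 and Lta 35203165 to 35205351, with gaps of 3060 and 1157 bases between them and no other coding gene in the gaps. Their promoter windows from RefSeq (GRCm38.p6, 250 bases before to 50 after the start) are shown because these adjacent genes moved by unequal amounts. They are chr17:35194257-35194556 on the plus strand for Ltb, and chr17:35201958-35202257 for Tnf and chr17:35205302-35205601 for Lta on the minus strand. Capitals mark a match to GGG and TTCC with any NNN between, a form of the kappa B site, in Ltb and to TGACNNNGC, the core of the antioxidant response element, in Lta, on either strand.
Ltb: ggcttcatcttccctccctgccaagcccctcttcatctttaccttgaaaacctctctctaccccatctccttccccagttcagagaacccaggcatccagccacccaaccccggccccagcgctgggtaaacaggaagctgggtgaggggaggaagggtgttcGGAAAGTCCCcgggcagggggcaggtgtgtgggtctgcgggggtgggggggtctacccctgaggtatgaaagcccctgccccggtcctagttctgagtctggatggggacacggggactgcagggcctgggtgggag
Tnf: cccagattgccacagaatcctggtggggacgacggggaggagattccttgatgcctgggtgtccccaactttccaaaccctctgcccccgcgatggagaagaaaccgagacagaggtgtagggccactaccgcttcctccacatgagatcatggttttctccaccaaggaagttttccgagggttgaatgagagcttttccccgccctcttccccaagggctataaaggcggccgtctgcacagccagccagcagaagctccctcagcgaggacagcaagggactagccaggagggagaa
Lta: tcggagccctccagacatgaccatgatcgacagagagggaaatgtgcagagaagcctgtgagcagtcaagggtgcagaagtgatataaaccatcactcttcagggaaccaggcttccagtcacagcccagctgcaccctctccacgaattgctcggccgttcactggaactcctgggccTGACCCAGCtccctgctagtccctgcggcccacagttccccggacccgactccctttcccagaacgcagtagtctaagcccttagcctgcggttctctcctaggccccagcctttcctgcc
The Ltb match begins 87 bases before the start and the Lta match 71 bases before it, and the Tnf window held no match to either motif or to TGANTCA, the AP-1 site.

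Ltb had 1.24, 1.30 and 1.70 CPM in piceatannol libraries, against 28.9, 34.6 and 27.4 CPM in control libraries. All 3 piceatannol values lay far under the lowest control value. The fall was 21.1-fold (log2 fold change -4.40 ± 0.14 SE; adjusted p = 1.77e-16, edgeR). Lta had 3.49, 2.27 and 3.24 CPM in piceatannol libraries, against 17.7, 24.9 and 16.1 CPM in control libraries, again without overlap. It fell 6.41-fold (log2 fold change -2.68 ± 0.20 SE; adjusted p = 2.4e-07, edgeR). Tnf, the founding cytokine of the family, had 65.8, 54.3 and 66.1 CPM with piceatannol, against 70.5, 82.1 and 76.1 CPM in control. The groups did not overlap but lay close together, and the fall was 1.23-fold (log2 fold change -0.29 ± 0.08 SE; adjusted p = 0.00241, edgeR). Per gene length, the FPKM of Tnf was 36.1 to 49.4 times that of Ltb in the piceatannol libraries and 2.20 to 2.57 times in the control libraries. Lymphocytes are known to express both lymphotoxin genes, and most of their markers were lower with piceatannol too. T cell markers (4 lower and 1 higher of 5 tested, 9 listed) summed to 3.21 to 3.63 CPM with piceatannol and 5.45 to 6.34 CPM in control. Most of the piceatannol sum came from Cd4, which rose (255 counts in all with piceatannol, 78 in control). Cd3g fell 18.5-fold (5 counts with piceatannol, 119 in control), Cd5 10.2-fold (20 with piceatannol, 264 in control) and Cd8a 8.42-fold (6 with piceatannol, 66 in control), while Cd3e had 0 counts with piceatannol and 3 in control. B cell markers (5 lower and 1 higher of 6) summed to 1.54 to 3.11 CPM with piceatannol and 3.44 to 4.70 CPM in control. Dendritic cell markers, given above, were mostly lower too (6 lower and 1 higher of 9 tested). The part of lymphocytes or dendritic cells in the falls of Ltb and Lta was not tested.

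**Figure D2:**
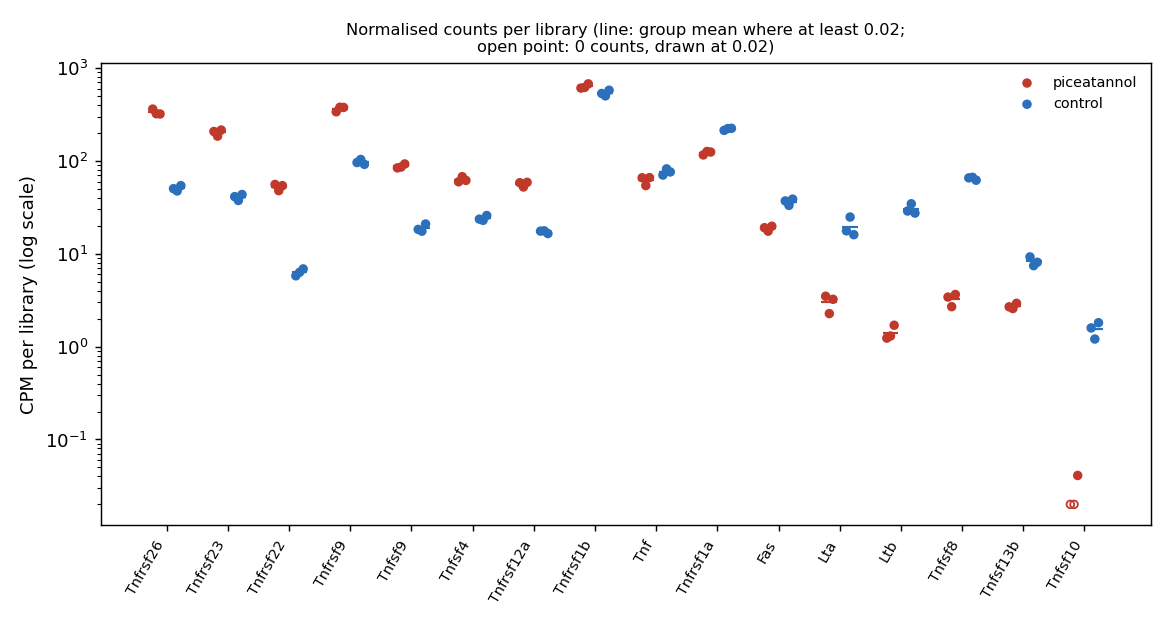
CPM in each library (y axis, log scale) for 16 members (x axis), piceatannol libraries on the left of each pair and control libraries on the right, with a line at the group mean where that is at least 0.02 CPM and open points for 0 counts. Tnfrsf26 lies between 320 and 362 CPM with piceatannol, and the piceatannol points of Ltb, Tnfsf8 and Tnfsf10 lie far under the control points.

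The death ligands Fasl and Tnfsf10 moved apart, both at low levels. Fas ligand and TRAIL (the product of Tnfsf10) trigger cell death through Fas and TRAIL receptors. Fasl had 31, 39 and 44 counts in piceatannol libraries, against 1, 2 and 0 counts in control libraries. From 3 control counts in all, the ratio of summed counts, scaled by library size, was 47.8, with a 95% exact binomial interval of 15.9 to 235 that covers counting error only. Tnfsf10 went the other way, with 0, 0 and 2 counts in piceatannol libraries, against 84, 53 and 107 counts in control libraries. Scaled by library size, the control sum was 97.1 times the piceatannol sum (95% exact binomial interval 26.6 to 806). Both passed the threshold (adjusted p = 6.29e-08 for Fasl and 2.4e-09 for Tnfsf10, edgeR). Their fitted fold changes depended on single libraries of few counts. For Fasl the log2 fold change of 5.41 became 6.33 without control replicate 2 and 4.78 without control replicate 3, and for Tnfsf10 the -6.37 became -9.16 without piceatannol replicate 3. Cells of the natural killer lineage are known to carry both ligands. Of 6 natural killer markers, Ncr1, Klra8 and Prf1 were at 0 counts in every library, and the list summed to 2.97 to 5.39 CPM with piceatannol and 12.98 to 14.99 CPM in control, mostly from Klrk1. Both of the natural killer markers tested fell, Klrb1c 7.59-fold (10 counts in all with piceatannol, 98 in control) and Klrk1 3.39-fold. Their part in the results for Tnfsf10 and Fasl was not tested.

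Among the ligands known to costimulate T cells, Tnfsf9, Tnfsf4 and Tnfsf14 rose and Tnfsf8 fell, while Cd70 and Tnfsf15 did not pass the threshold. Tnfsf8 encodes the ligand of the receptor CD30 (chromosome 4, 63831308 to 63861347). It had 3.42, 2.69 and 3.65 CPM in piceatannol libraries, against 65.7, 66.6 and 62.0 CPM in control libraries. The fall was 19.65-fold (log2 fold change -4.30 ± 0.10 SE; adjusted p = 1.32e-18, edgeR), beside the 21.1-fold fall of Ltb. The part of the cell types with falling markers in the result for Tnfsf8 was not tested. Its neighbour Tnfsf15, which encodes the ligand TL1A and lies 86194 bases away with no coding gene between, had 2.92, 1.97 and 2.11 CPM with piceatannol and 3.18, 2.57 and 2.72 CPM in control. These groups overlapped (log2 fold change -0.27, adjusted p = 0.199, edgeR), and without piceatannol replicate 1 the value was -0.47 with an adjusted p = 0.0439. The Tnfsf8 promoter window, shown because Tnfsf8 had the lowest adjusted p among the members that fell, is chr4:63861235-63861534 on the minus strand and held no match to the kappa B, AP-1 or antioxidant motifs, so it has no capitals.
Tnfsf8: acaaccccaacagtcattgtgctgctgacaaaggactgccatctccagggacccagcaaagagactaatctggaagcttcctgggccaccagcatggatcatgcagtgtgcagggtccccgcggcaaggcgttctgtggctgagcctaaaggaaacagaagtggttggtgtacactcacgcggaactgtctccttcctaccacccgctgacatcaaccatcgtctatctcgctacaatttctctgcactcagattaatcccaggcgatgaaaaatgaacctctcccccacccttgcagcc

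Tnfsf9 encodes the ligand of the receptor CD137. It had 84.1, 86.0 and 92.8 CPM in piceatannol libraries, against 18.3, 17.5 and 20.9 CPM in control libraries. The groups stood well apart, with a 4.62-fold rise (log2 fold change 2.21 ± 0.08 SE; adjusted p = 7.2e-16, edgeR). The Tnfsf9 value carries a limit, because a noncoding RNA on the opposite strand, Gm11110, shares 14.88% of its exon bases. Tnfsf4, the gene of OX40 ligand, had 59.6, 67.7 and 61.7 CPM with piceatannol, against 23.6, 22.9 and 25.8 CPM in control. It rose 2.61-fold (adjusted p = 7.01e-13, edgeR) without overlap. Tnfsf14, whose product LIGHT binds the lymphotoxin beta receptor and the receptor HVEM, had 25.8, 18.9 and 25.9 CPM with piceatannol and 12.9, 14.1 and 16.4 CPM in control. Its rise of 0.71 on the log2 scale passed the threshold (adjusted p = 0.000101, edgeR), although piceatannol replicate 2 lay near the control values. Cd70, the gene of the CD27 ligand, had 34, 41 and 48 counts with piceatannol and 47, 42 and 49 counts in control (adjusted p = 0.573, edgeR). Tnfsf9, Cd70 and Tnfsf14 lie in this order on chromosome 17, with gaps of 38239 and 39714 bases and no coding gene between. The middle gene is thus the member of this row that was not called. Tnfsf18, the gene of GITR ligand, was not tested, at 14, 18 and 4 counts with piceatannol against 0, 5 and 4 in control. With no filter it passed (log2 fold change 2.32, adjusted p = 0.00281, edgeR), although its groups overlap, and it also entered the test and passed with control replicate 1, 2 or 3 or piceatannol replicate 3 left out (adjusted p of 0.00182 to 0.0453).

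The other tested ligands all fell. Tnfsf13b encodes BAFF, a survival factor for B cells made by myeloid cells. It had 2.68, 2.57 and 2.93 CPM in piceatannol libraries, against 9.26, 7.45 and 8.11 CPM in control libraries. This was a 3.02-fold fall (log2 fold change -1.60 ± 0.14 SE; adjusted p = 2.39e-09, edgeR), with no overlap. Tnfsf12, the gene of TWEAK, had 19.5 ± 1.4 CPM with piceatannol and 29.6 ± 2.31 CPM in control (SD, n = 3 each) and fell by 0.60 on the log2 scale. Tnfsf13, the gene of APRIL, a relative of BAFF, had 1.22 ± 0.303 CPM with piceatannol and 2.31 ± 0.278 CPM in control (SD, n = 3 each) and fell by 0.91. The values of these neighbouring genes are uncertain, because the fused gene Tnfsfm13 covers 48.25% of the exon bases of Tnfsf12 and 60.05% of those of Tnfsf13 on the same strand. Tnfsfm13 itself fell by 0.71 on the log2 scale, with 0.773 CPM in piceatannol and 1.28 CPM in control libraries. Tnfsf13os shares 221 exon bases with Tnfsf13 on the opposite strand and did not pass the threshold (log2 fold change -0.68, adjusted p = 0.0809, edgeR), while limma on log2(FPKM + 1) gave an adjusted p = 0.00685. Tnfsf11, the gene of the osteoclast factor RANKL, had 1, 4 and 1 counts with piceatannol and 4, 3 and 9 in control, too few to show a difference.

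Receptors with a death domain also divided. Tnfrsf1a, which encodes the main death domain receptor for TNF (chromosome 6, 125349362 to 125362484), had 116, 126 and 125 CPM in piceatannol libraries, against 213, 223 and 225 CPM in control libraries. The groups stood well apart, with a 1.80-fold fall (log2 fold change -0.85 ± 0.06 SE; adjusted p = 4.87e-11, edgeR). Fas, the receptor of Fas ligand (chromosome 19), had 19.1, 17.5 and 19.8 CPM with piceatannol, against 37.1, 33.2 and 38.8 CPM in control. It fell 1.93-fold (adjusted p = 1.32e-09, edgeR). Tnfrsf25, which encodes DR3, the receptor of TL1A, had 7, 2 and 4 counts with piceatannol, against 45, 67 and 71 counts in control. Scaled by library size, the control sum was 11.2 times the piceatannol sum (95% exact binomial interval 6.39 to 21.4). Tnfrsf21, the gene of DR6, was the death domain receptor with a clear rise, at 87.7, 91.9 and 81.9 CPM with piceatannol against 42.8, 46.4 and 47.0 CPM in control (log2 fold change 0.94, adjusted p = 6.91e-11, edgeR). Tnfrsf10b, the signalling TRAIL receptor of the mouse, had 9.81, 9.38 and 7.99 CPM with piceatannol and 7.46, 8.02 and 7.04 CPM in control. The groups overlapped, and its small rise (log2 fold change 0.27 ± 0.12 SE; adjusted p = 0.0427, edgeR) lost the call without control replicate 1 (adjusted p = 0.105), control replicate 3 (0.152), piceatannol replicate 1 (0.155) or piceatannol replicate 2 (0.0936). Ngfr, the neurotrophin receptor p75, was not tested, with 9, 1 and 1 counts in piceatannol libraries and 10, 8 and 21 in control.

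Tnfrsf1b, which encodes the TNF receptor without a death domain (chromosome 4, 145213463 to 145246870), was the member with the highest level in both groups. It had 609, 619 and 676 CPM in piceatannol libraries, against 533, 502 and 578 CPM in control libraries. The rise was small but without overlap (log2 fold change 0.24 ± 0.07 SE; adjusted p = 0.00312, edgeR). Since Tnfrsf1a fell, the FPKM of Tnfrsf1b was 3.56, 3.32 and 3.68 times that of Tnfrsf1a in the piceatannol libraries, against 1.70, 1.53 and 1.75 times in the control libraries. The ratio thus lay higher in every piceatannol library than in any control library. Ltbr, the lymphotoxin beta receptor, lies 35476 bases from Tnfrsf1a on chromosome 6. It had 69.0, 77.6 and 80.7 CPM with piceatannol, against 106, 120 and 117 CPM in control, and fell 1.51-fold (adjusted p = 1.63e-07, edgeR). Cd40, the receptor through which T cells stimulate macrophages, had 25.5, 24.3 and 27.9 CPM with piceatannol and 25.3, 31.9 and 28.5 CPM in control. These groups overlapped (log2 fold change -0.14 ± 0.09 SE; adjusted p = 0.154, edgeR), and without control replicate 1 the adjusted p was 0.0334.

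Tnfrsf9, encoding the receptor CD137 (chromosome 4, 150914562 to 150946102), reached the level next to Tnfrsf1b in the piceatannol group. It had 338, 379 and 377 CPM in piceatannol libraries, against 96.1, 104 and 91.8 CPM in control libraries. The groups were far apart, with a 3.75-fold rise (log2 fold change 1.91 ± 0.07 SE; adjusted p = 8.64e-16, edgeR). RefSeq gives 2 starts for it. The window of the downstream start, chr4:150927749-150928048 on the plus strand, is shown because it holds a kappa B form beginning 43 bases before the start and an AP-1 site beginning 15 bases before it, both in capitals, on the plus strand. The other start's window, chr4:150919905-150920204 on the plus strand, held neither of these but an antioxidant core beginning 43 bases before its start. Both windows lie inside the gene as GENCODE places it, so the sequence around its first annotated base, 150914562, was not searched.
Tnfrsf9: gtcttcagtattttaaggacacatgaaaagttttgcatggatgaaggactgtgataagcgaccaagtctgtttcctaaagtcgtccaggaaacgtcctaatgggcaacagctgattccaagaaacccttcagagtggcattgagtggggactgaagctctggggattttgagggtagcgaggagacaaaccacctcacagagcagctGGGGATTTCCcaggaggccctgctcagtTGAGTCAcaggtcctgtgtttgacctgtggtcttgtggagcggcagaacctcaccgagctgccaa
Tnfrsf12a encodes Fn14, the receptor of TWEAK, known to be induced by growth factors and injury. It had 58.3, 52.4 and 58.8 CPM with piceatannol, against 17.5, 17.7 and 16.5 CPM in control, a 3.28-fold rise (adjusted p = 2.39e-14, edgeR) without overlap. Eda2r, a receptor of ectodysplasin and a known p53 target, had 6.72, 6.45 and 6.27 CPM with piceatannol, against 3.37, 3.05 and 2.86 CPM in control. It rose 2.09-fold (adjusted p = 7.36e-07, edgeR). The ectodysplasin gene Eda did not pass the threshold (log2 fold change 0.33, adjusted p = 0.402, edgeR).

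Of the other receptors without a death domain, Tnfrsf8, Tnfrsf14, Tnfrsf18, Tnfrsf4 and Tnfrsf13b fell. Tnfrsf8, the gene of CD30, had 0.546, 0.575 and 0.430 CPM in piceatannol libraries, against 2.35, 1.85 and 2.08 CPM in control libraries, and fell 4.08-fold (log2 fold change -2.03 ± 0.26 SE; adjusted p = 4.54e-07, edgeR). It lies 20266 bases from Tnfrsf1b, which rose. Tnfrsf14, the gene of HVEM, had 6.25, 7.99 and 7.00 CPM with piceatannol, against 15.6, 13.03 and 16.6 CPM in control, and fell 2.14-fold (adjusted p = 4.73e-08, edgeR). Tnfrsf18, the gene of GITR, had 9.33, 12.0 and 10.6 CPM with piceatannol, against 20.9, 25.2 and 17.5 CPM in control, and fell 1.99-fold (adjusted p = 3.77e-06, edgeR). In each of these the groups stood apart. The Tnfrsf18 value carries a limit, because an antisense RNA, Gm16008, shares 27.17% of its exon bases. Its neighbour Tnfrsf4, the gene of OX40, fell by 0.81 on the log2 scale (2.29 ± 0.437 CPM with piceatannol, 4.07 ± 0.912 CPM in control; SD, n = 3 each). Tnfrsf13b, which encodes TACI, a receptor for BAFF and APRIL, fell 1.64-fold (37.5 ± 2.63 CPM with piceatannol, 61.3 ± 1.2 CPM in control; SD, n = 3 each). Tnfrsf13c and Tnfrsf17, the other BAFF and APRIL receptors, were barely present, at 2 and 35 counts in all for Tnfrsf13c in the piceatannol and control groups and 1 and 2 for Tnfrsf17. Cd27 had 0 counts in every piceatannol library, which allows up to 0.0908 CPM in the shallowest of them, and 6, 0 and 0 counts in control. Tnfrsf19 had 2 to 4 counts with piceatannol and 3 to 7 in control.

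Tnfrsf11a, which encodes RANK, the receptor through which RANKL drives osteoclast formation, did not pass the threshold. It had 39.7, 39.1 and 41.4 CPM in piceatannol libraries, against 42.0, 37.1 and 38.8 CPM in control libraries, with overlapping groups (log2 fold change 0.03 ± 0.07 SE; adjusted p = 0.713, edgeR). Tnfrsf11b, encoding osteoprotegerin, the soluble decoy of RANKL, had 0.926, 1.63 and 1.00 CPM with piceatannol, against 2.93, 3.55 and 2.66 CPM in control. It fell 2.60-fold (log2 fold change -1.38 ± 0.23 SE; adjusted p = 1.51e-05, edgeR) without overlap. Stromal cells are known as a main source of osteoprotegerin, and the fibroblast or stromal markers given above summed to 526 to 590 CPM with piceatannol and 2277 to 2540 CPM in control. Their part in this result was not tested.

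The receptors Tnfrsf22, Tnfrsf23 and Tnfrsf26 had the highest rises of all members apart from Fasl, and they lie together on chromosome 7. Tnfrsf22 and Tnfrsf23 are known in the mouse as decoy receptors for TRAIL that lack a functional death domain, and Tnfrsf26 is a related receptor. Tnfrsf26 had 362, 322 and 320 CPM in piceatannol libraries, against 50.3, 47.5 and 54.2 CPM in control libraries. It rose 6.61-fold (log2 fold change 2.72 ± 0.07 SE; adjusted p = 8.31e-18, edgeR), and the lowest piceatannol value lay far above the highest control value. Tnfrsf23 had 208, 185 and 215 CPM with piceatannol, against 41.2, 37.5 and 43.5 CPM in control, a 4.97-fold rise (log2 fold change 2.31 ± 0.07 SE; adjusted p = 1.9e-16, edgeR). Tnfrsf22 had 55.8, 47.8 and 54.2 CPM with piceatannol, against 5.79, 6.31 and 6.87 CPM in control, an 8.31-fold rise (log2 fold change 3.06 ± 0.09 SE; adjusted p = 7.25e-17, edgeR). The split of reads between Tnfrsf22 and Tnfrsf23 is uncertain: 27.4% of the 50-base stretches in the transcripts of Tnfrsf22, and 18.01% of those of Tnfrsf23, recur in transcripts of other genes, mainly each other. Tnfrsf26 shared 0 such stretches. The FPKM of Tnfrsf23 was 27.2 to 37.1 times that of Tnfrsf10b with piceatannol and 6.42 to 8.50 times in control.

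All 3 genes are read from the minus strand, Tnfrsf26 at 143607659 to 143628722, Tnfrsf22 at 143634806 to 143649661 and Tnfrsf23 at 143665809 to 143685872, with gaps of 6083 and 16147 bases. Within 300000 bases on either side the annotation holds 15 coding genes, of which 11 were tested, and of these 10 rose and 1 fell, where 38.8% of all tested genes rose and 38.3% fell. Without the 3 receptors around which the stretch was drawn, 7 of 8 rose. Cdkn1c, encoding the cell cycle inhibitor p57, rose most in this stretch (log2 fold change 6.91), while Cars, next to Tnfrsf26, rose by 0.77 and Osbpl5, next to Tnfrsf23, by 0.43. Dhcr7, of cholesterol synthesis, fell by 0.55. Of the 3 receptors RefSeq's table holds a promoter window for Tnfrsf23, chr7:143685826-143686125 on the minus strand. It is shown for that reason, and it held no match to the kappa B, AP-1 or antioxidant motifs.
Tnfrsf23: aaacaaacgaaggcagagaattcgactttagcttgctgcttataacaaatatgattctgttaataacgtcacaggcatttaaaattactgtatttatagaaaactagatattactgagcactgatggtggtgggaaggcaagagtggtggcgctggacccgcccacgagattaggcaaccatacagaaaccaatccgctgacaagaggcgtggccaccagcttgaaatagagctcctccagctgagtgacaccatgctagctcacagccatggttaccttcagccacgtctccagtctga

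**Figure D3:**
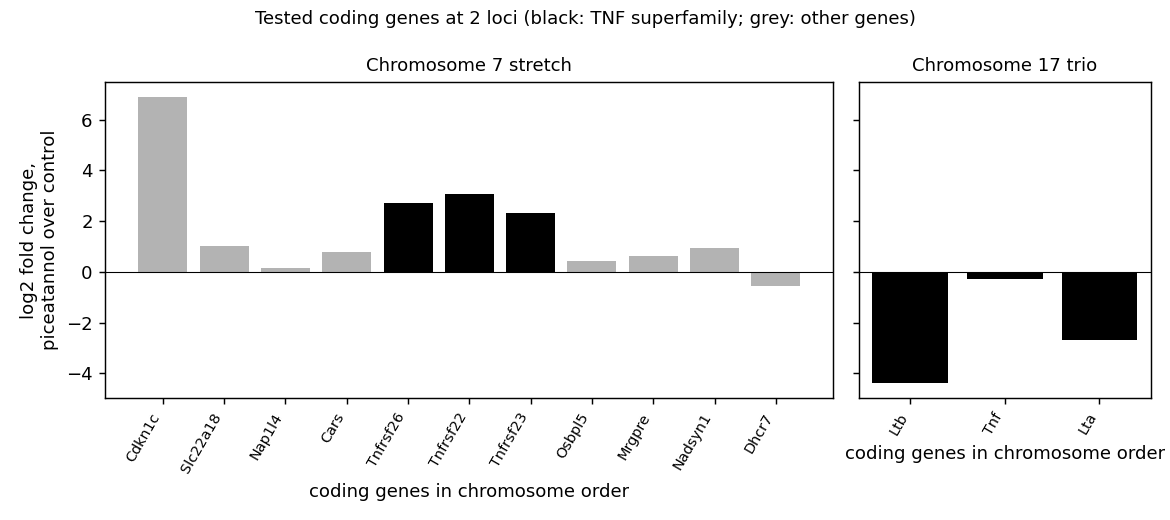
Log2 fold changes (y axis) of the tested coding genes in chromosome order (x axis), on the left for the chromosome 7 stretch and on the right for Ltb, Tnf and Lta on chromosome 17. Black bars are members of the family and grey bars other genes. Tnfrsf26, Tnfrsf22 and Tnfrsf23 stand at 2.72, 3.06 and 2.31 between Cars at 0.77 and Osbpl5 at 0.43, and Tnf stands at -0.29 between Ltb and Lta.

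Motif matches in the promoter windows were counted for the 33 members with an entry, which have 37 windows. The kappa B form was found in 4 of them (10.8%, and 5.56% of all 32851 windows of that table), in Ltb, Tnfrsf9, Tnfrsf25 and Eda2r. TGANTCA was found in 7 (18.9%, and 7.81% of all windows), of which 2 are overlapping Tnfsf13b windows that hold the same site, so that they come from 6 genes. TGACNNNGC was found in 8 (21.6%, and 12.4% of all windows). Both strands were searched, and a stretch can match both TGANTCA and TGACNNNGC. The genes with a kappa B form include 2 that fell, Ltb and Tnfrsf25, and 2 that rose, Tnfrsf9 and Eda2r. A match describes letters in this window, and windows of 300 bases leave out distant elements.

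Ligands and their receptors were then set side by side for 26 known pairs, of which 19 had both genes tested. In 7 pairs both genes fell and in 1, Tnfsf9 and Tnfrsf9, both rose. In 4 pairs the ligand rose and the receptor fell, namely Tnfsf4 with Tnfrsf4, Fasl with Fas, and Tnfsf14 with either Ltbr or Tnfrsf14. In 6 pairs the ligand fell and the receptor rose, among them Tnfsf12 with Tnfrsf12a and Tnfsf10 with Tnfrsf22 or Tnfrsf23. Many of these pairs share a gene, so their number is a description. The FPKM of Tnfsf4 was 22.7, 23.3 and 16.4 times that of Tnfrsf4 in piceatannol libraries, against 5.38, 3.36 and 4.9 times in control libraries. For Ltb over Ltbr the ratio was 0.0278, 0.0261 and 0.0326 with piceatannol, against 0.424, 0.447 and 0.365 in control. For Tnfsf9 over Tnfrsf9, which rose together, it was 0.550, 0.503 and 0.545 with piceatannol and 0.421, 0.374 and 0.505 in control, and these ranges overlap.

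**Figure D4:**
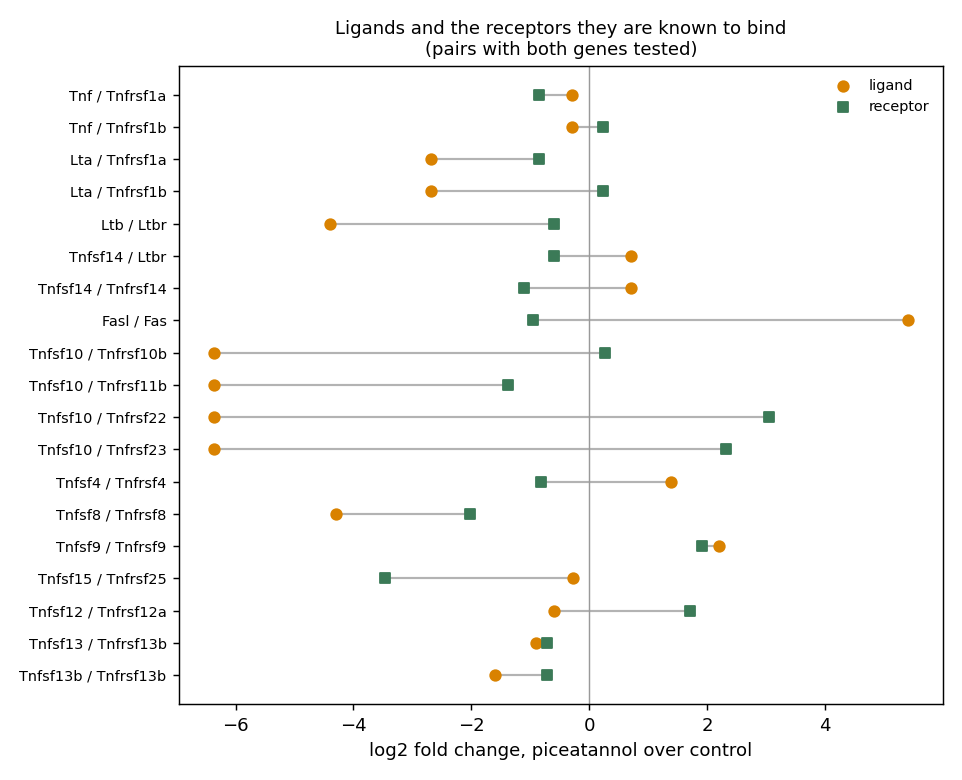
Log2 fold change (x axis) of the ligand (circle) and of the receptor (square) in each of the 19 pairs with both genes tested (y axis), joined by a line. Tnfsf9 and Tnfrsf9 lie together at 2.21 and 1.91, and Tnfsf10 lies at -6.37 beside Tnfrsf22 at 3.06.

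The order of levels within the family differed between the groups. Per gene length, Tnfrsf1b led in both, at 164 ± 9.12 FPKM with piceatannol and 141 ± 9.56 FPKM in control (SD, n = 3 each). In the piceatannol group Tnfrsf9 (132 ± 8.52 FPKM), Tnfrsf26 (102 ± 6.98 FPKM), Tnfsf9 (70.2 ± 3.57 FPKM) and Tnfrsf12a (57.8 ± 3.42 FPKM) followed, each with libraries apart from its neighbours in the order. Tnfrsf23 (50.4 ± 3.71 FPKM) and Tnfrsf1a (46.5 ± 2.23 FPKM) came next and overlapped. In the control group Tnfrsf1a (85.1 ± 2.44 FPKM) took the place after Tnfrsf1b, followed by Ltbr (48.5 ± 3.25 FPKM) and Tnf (46.5 ± 3.67 FPKM), which overlapped, and Tnfrsf9 (35.7 ± 2.32 FPKM). From Tnfrsf13b to Tnfrsf21 each gene in the control order overlapped the next, so neighbours could not be ordered. Genes further apart in this run could be, as Tnfrsf13b (21.6 ± 0.485 FPKM) and Tnfrsf21 (12.5 ± 0.640 FPKM) did not overlap. Of the summed FPKM of all ligands, Tnfsf9 made up 40.35% ± 1.08 with piceatannol and 9.76% ± 1.24 in control, and Tnf 21.4% ± 1.87 with piceatannol and 29.4% ± 0.598 in control (SD, n = 3 each). Of that of all receptors, Tnfrsf26 made up 15.2% ± 1.34 with piceatannol and 3.45% ± 0.174 in control, and Tnfrsf1a 6.9% ± 0.283 with piceatannol and 18.6% ± 0.308 in control. The sum over all receptors was 661 to 693 FPKM in piceatannol libraries and 447 to 468 FPKM in control libraries.

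**Figure D5:**
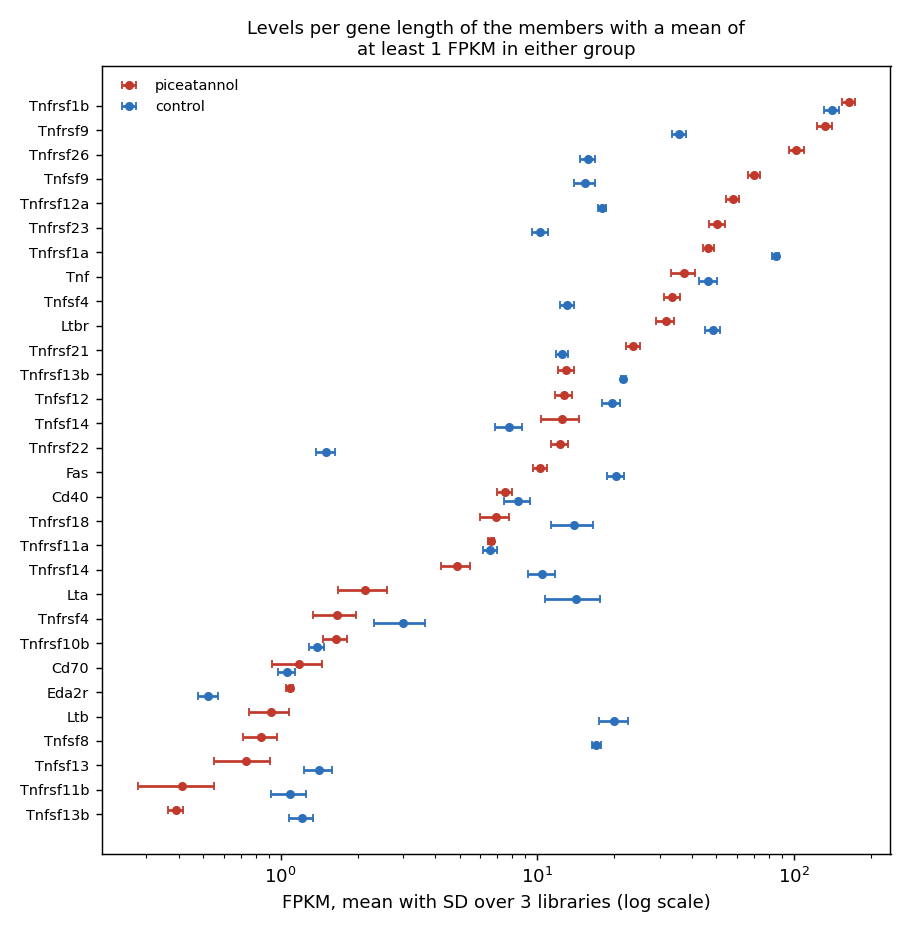
FPKM (x axis, log scale; mean with SD over 3 libraries) of the members with a mean of at least 1 FPKM in either group (y axis), in the order of the piceatannol level. Tnfrsf1b is at the top at 164 FPKM with piceatannol and 141 FPKM in control, and Ltb and Tnfsf8 lie under 1 FPKM with piceatannol against 20.0 and 17.02 FPKM in control.

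The genes that process, relay and limit the signals of the family moved both ways too. Of 73 such genes in 7 lists, 71 were tested, and of these 31 rose and 29 fell (84.5% called, against 77.0% of all tested genes), with a median log2 fold change of 0.08. By 2-fold or more 7 rose and 7 fell, where 17.5% of all tested genes rose and 16.6% fell by as much. The counts of rises and falls in each list stand beside 38.8% and 38.3% of all tested genes. Among superfamily genes that the naming rule leaves out, 3 rose and 3 fell of 7 tested. The receptor gene Relt fell (29.7 CPM with piceatannol, 86.5 CPM in control; log2 fold change -1.54) as did its relative Rell2 (-0.72). Edaradd is an adaptor of Edar, another ectodysplasin receptor, which had 0 counts in all with piceatannol and 1 in control. Edaradd rose by 1.92 at 0.491 CPM with piceatannol and 0.14 CPM in control, with overlapping groups. Its rise was 2.76 without control replicate 2, and it was not called in limma on log2(FPKM + 1) (adjusted p = 0.12). Cd40lg had 0 counts in every library.

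Of 12 adaptor genes, 7 rose and 4 fell. Tank, a TRAF-binding regulator, rose 2.38-fold and Traf6, a ubiquitin ligase downstream of RANK and CD40, 1.92-fold, while Cradd (log2 fold change -1.14) and Traf5 (-0.76) fell. Traf1, itself a known NF-kB target, rose by 0.25 on the log2 scale with overlapping groups, a call lost without piceatannol replicate 3 (adjusted p = 0.0559, edgeR). Of 11 genes of the death branch, 4 rose and 7 fell. Cflar, encoding the caspase-8 inhibitor cFLIP, rose (0.69), and Bid, which carries the death signal to mitochondria, fell (-0.69).

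Of 12 kinase and ubiquitin ligase genes, 3 rose and 5 fell. Ikbkg, of the regulatory subunit NEMO, rose (0.98) and so did Tab3 (0.43), whereas Rbck1 (-1.11) and the stress kinase gene Map3k5 (-1.33) fell. Rbck1 encodes a subunit of the linear ubiquitin ligase, and of the genes of its other subunits Rnf31 rose (0.23) and Sharpin fell (-0.39). Of 11 feedback genes, 4 rose and 4 fell. Tnfaip3, of the NF-kB inhibitor A20, rose (145 CPM with piceatannol, 86.4 CPM in control; 0.75), as did the deubiquitinase gene Otulin (0.69), while Nfkbie (-1.07) and Relb (-0.63) fell. Of 8 genes of shedding and processing, 2 rose and 5 fell. Furin, of the convertase that cleaves BAFF and APRIL, rose (0.92), as did Rhbdf1 (1.28), while Timp3, encoding an inhibitor of the TNF-shedding protease, fell (-2.38 ± 0.34 SE; adjusted p = 0.00274, edgeR) together with Sppl2b (-0.62). Timp3 is also a stromal gene. Of the fibroblast or stromal markers 6 of 8 fell, while Dcn and Lum did not pass the threshold, and their part in the fall of Timp3 was not tested. Adam17, the gene of that protease, fell by 0.16, a call lost with upper-quartile factors (adjusted p = 0.0918), with a stricter filter (adjusted p = 0.0715) and without control replicate 1 (adjusted p = 0.0807, edgeR). Of 10 genes that control Tnf mRNA, 8 rose and 1, the decay factor gene Khsrp (-0.28), fell. Rc3h1, of the decay factor roquin (1.12), and Zc3h12a, of the ribonuclease regnase (0.86), had the highest rises. In the lists, a signed or plain value in parentheses directly after a gene is its log2 fold change, and each such gene passed the threshold.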

How the data were processed

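The authors deposited whole-number read counts per gene symbol for 6 libraries, and FPKM values, which account for gene length and depth, for the same genes. The submitters' processing notes name bcl2fastq, STAR, featureCounts and DESeq2, and the builds mm10 and GRCm38, without versions. The annotation, the strand setting and the treatment of reads that fit several genes are not stated in the sources used, so counts of overlapping and near-identical genes are uncertain. Counts were filtered with filterByExpr (minimum count 10) and scaled by TMM. Library totals were 33276569 to 58697084 counts. Groups were compared by edgeR 4.0.16 (quasi-likelihood, robust, two-sided) in R 4.3.3, and the standard error was taken as the size of the log2 fold change over the square root of F. The test was also run on simulated counts in which few genes changed. Most genes were called in these data, so that run cannot check the calls given here. Deviations from the group means correlated weakly between same-numbered libraries (0.115, 0.121 and 0.134 across genes), and at -0.1195 to 0.0058 between the others. The labels do not say that same-numbered libraries are paired. The main fit left them unpaired, and the replicate number as a block was an alternative. Other alternatives were other scalings and filters, DESeq2 1.42.0, limma 3.58.1 on counts and on log2(FPKM + 1) and log2(FPKM + 0.1), other thresholds, each library left out, and, chosen after seeing the data, library totals. Gene positions are from GENCODE M21 and promoter windows from RefSeq. Intervals cover counting error only: reads without molecular identifiers are not independent molecules. The members and lists were chosen with earlier results of these data known. Members with full values were the 8 highest and 8 lowest called log2 fold changes that averaged at least 0 on the log2 CPM scale, and 11 members whatever their result. Of each signalling list, up to 2 genes called in each direction are named, with Tnfaip3, Traf1 and Adam17 whatever their result. Some genes that this rule names are not reported here. Other genes were named after their values were seen.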

Additional observations from a re-analysis of the deposited data

How the results depend on the processing

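Of 644 values of the 36 tested members under 18 alternatives, 614 kept their direction and their side of the threshold. The alternatives with other thresholds reused the main fit, so under them the direction could not change. Asking for a 2-fold change left 9 members lower in place of 18, 5234 genes in all in place of 11846, and 7 signalling genes higher and 7 lower in place of 31 and 29. Leaving out 1 library at a time gave 12 to 14 members higher and 18 to 20 lower, with 11487 to 11880 genes in all, and 30 to 31 signalling genes higher and 27 to 30 lower. With the replicate number as a block, 13 members were higher and 18 lower, 12012 genes in all, and 31 signalling genes were higher and 30 lower, and no member's call changed. Tnfrsf11a, which was not called, changed sign with no filter (-0.0002), without control replicate 2 (-0.0142) and with library totals (-0.0007), and lay between -0.0142 and 0.0734 with 1 library left out. Tnfrsf10b lost its call under 11 alternatives, with a log2 fold change of 0.15 to 0.36 over all of them. The log2(FPKM + 1) scale shrank low genes by construction, as for Tnfsf10 (-0.36) and Tnfrsf25 (-0.54). Tnfrsf13c, not tested in the main fit, was called lower with no filter (adjusted p = 0.00066, edgeR). The median of all tested genes lay between -0.02 (library totals) and 0.06 (upper-quartile factors). Members with fewer than about 10 counts in most libraries were limited by depth.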
